A study of Mus musculus with 8 samples.

Results

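The cytosolic ribosomal protein genes encode the proteins of the large and small subunits of the ribosome. They were taken from the count files by symbol, as *Rpl* or *Rps* followed by a number, with *Rplp0*, *Rplp1*, *Rplp2* and *Rpsa*, and without kinases of the *Rps6k* family and without symbols of annotated pseudogenes that carry the ending -ps. Of the 25239 gene symbols in the files 90 matched, and 83 of these held at least 10 counts in at least 4 of the 8 libraries. All 83 were among the 14249 genes tested. Of the 83, 43 encode proteins of the large subunit and 30 proteins of the small subunit, 7 are paralogs of such genes, 2 (*Rps19bp1* and *Rps23rg1*) match the symbol rule without encoding a ribosomal protein, and *Rpl37rt* is an annotated processed copy of *Rpl37* that stood in none of these lists.

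RNA-Seq libraries were prepared from whole ovaries of female C57BL/6 mouse embryos at E14.5, 4 libraries for each genotype and 2 embryos pooled in each library. Controls had the genotype *Bmpr1a* fl/fl, and the mutants, called *Bmpr1a*-cKO, were *Bmpr1a* fl/fl with *Oct4-Cre* Cre/WT. Dams of both groups were injected with 4-hydroxytamoxifen (1 mg) and progesterone (0.5 mg), first at 9.5 dpc, then at 10.5 dpc and last at 11.5 dpc. The control embryos carried the floxed alleles without Cre. *Oct4-Cre* recombines in germ cells, and the somatic cells of the ovary kept *Bmpr1a*, which encodes a BMP receptor. The 8 embryos of each genotype came from a study of 6 litters, and the litter of each library is not given in the sources used here. In a whole ovary, a lower level from fewer cells of a type cannot be told apart from less RNA per cell.

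A ribosome holds a copy of nearly every one of these proteins, so their genes are transcribed at high levels in all growing cells and are usually kept in balance with each other. Their mRNAs begin with a run of pyrimidines at the cap, the 5′ terminal oligopyrimidine (TOP) tract, through which mTOR and LARP1 control their translation. Some ribosomal protein genes have a paralog whose protein can take the place of the main one, and several of these copies are used mainly in germ cells, where they stand in for X-linked genes.

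The coding sequences of the paralog pairs with the largest changes are shown first, since reads of a pair must be told apart for their counts to be read separately. *Rpl39* lies on the X chromosome (mm10, chrX:37082701-37085127, minus strand, from the start to the stop codon with introns) and *Rpl39l* on chromosome 16 (chr16:10174310-10174465, plus strand, coding exon). Capitals mark the 23 of 156 coding bases that differ between the copies.
Rpl39: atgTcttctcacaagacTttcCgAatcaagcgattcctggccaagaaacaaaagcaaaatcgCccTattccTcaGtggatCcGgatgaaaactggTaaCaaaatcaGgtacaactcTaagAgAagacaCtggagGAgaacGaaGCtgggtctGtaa
Rpl39l: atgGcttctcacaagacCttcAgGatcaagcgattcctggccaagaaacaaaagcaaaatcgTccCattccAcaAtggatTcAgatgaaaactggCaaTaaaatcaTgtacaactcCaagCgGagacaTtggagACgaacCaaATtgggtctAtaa
The copies were 85.3% identical, 3 of 52 codons encoded another amino acid, and the longest stretch without a difference was 38 bases. For *Rps4x* (X chromosome) and *Rps4l* (chromosome 6), which GENCODE lists as a transcribed processed pseudogene, the first 120 coding bases are shown. They lie at chrX:102187964-102189300 (minus strand, introns included) and chr6:148354710-148354829 (plus strand).
Rps4x: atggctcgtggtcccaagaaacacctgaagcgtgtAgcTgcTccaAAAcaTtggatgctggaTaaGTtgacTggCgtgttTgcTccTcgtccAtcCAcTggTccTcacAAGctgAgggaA
Rps4l: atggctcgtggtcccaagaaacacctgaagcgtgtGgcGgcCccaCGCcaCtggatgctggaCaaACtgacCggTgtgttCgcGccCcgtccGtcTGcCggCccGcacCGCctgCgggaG
Over the 783 aligned bases these copies were 79.9% identical and 157 bases differed. Of 261 codons, 17 encoded another amino acid, and 0 were stop codons in *Rps4l*.

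The 30 bases around the annotated start, 15 on each side, are shown for subunit genes that were called higher in *Bmpr1a*-cKO ovaries and for the *Rpl39* pair (RefSeq, GRCm38.p6), since the TOP tract begins there. Capitals mark any unbroken run of at least 6 C or T that begins with C, on the strand of the gene.
Rpl15 (chr14:18270972-18271001, minus strand): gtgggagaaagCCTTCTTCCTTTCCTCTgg
Rps12 (chr10:23787195-23787224, minus strand): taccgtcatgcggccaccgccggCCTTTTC
Rpl5 (chr5:107900513-107900542, plus strand): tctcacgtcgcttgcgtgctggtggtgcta
Rplp0 (chr5:115559452-115559481, plus strand): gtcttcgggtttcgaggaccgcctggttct
Rpl39 (chrX:37085208-37085237, minus strand): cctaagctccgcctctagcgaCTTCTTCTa
Rpl39l (chr16:10170213-10170242, plus strand): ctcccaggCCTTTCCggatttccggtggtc
A promoter was matched for 63 of the 83 genes. Such a run stood in this window in 35 of the 63 (55.6%) and in 25.5% of the 27025 genes with a promoter in RefSeq. In the whole window from 250 bases before to 50 after the start, CCGGAA (either strand) was present in 50.8% of the ribosomal protein genes and 16.7% of all genes, GGGCGG (either strand) in 63.5% and 38.2%, and AAGATGG (either strand) in 14.3% and 7.28%. TATAAA, searched on the gene strand in the 40 bases before the start, was present in 1.59% and 2.78%. The reverse of CCGGAA can overlap a pyrimidine run. These matches describe letters in the windows.

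Ribosomal protein genes held 3.54% to 4.09% of all counts in the control and 3.69% to 4.13% in the cKO libraries, so the ranges overlapped. In the order of the libraries, the shares were 3.90%, 4.09%, 3.91% and 3.54% in control and 3.69%, 3.97%, 4.13% and 4.07% in *Bmpr1a*-cKO ovaries. The total count per library was 8562961 to 15365052, and *Rn45s*, the 45S pre-ribosomal RNA, took 13.1% to 16.7% of it. With values in CPM, in which a count is divided by the TMM-scaled size of its library, per kb of annotated exon, the 73 subunit genes had a median level of 237 in control ovaries, and all genes tested had a median of 6.16. The highest levels per kb were those of *Rplp1* (1201), *Rps3a1* (855) and *Rps2* (715), which encode a stalk protein of the large subunit and core proteins of the small subunit. Per kb of the principal transcript, a length chosen after the data were seen, the order changed to *Rps14* (1220), *Rplp1* (1201) and *Rps2* (1197), with *Rps3a1* at 855. At the low end, *Rps23rg1* (0.294), *Rpl37rt* (5.81) and *Rpl10l* (7.41) were not subunit genes in the strict sense, and *Rpl22* (47.0) was the lowest of the 73.

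Of the 7 symbols that matched but held too few counts, *Rpl26*, *Rpl30*, *Rpl34* and *Rps27* encode proteins found in every ribosome. *Rpl26* was listed at 0 in all 8 libraries, *Rpl30* at 0 to 3 counts, *Rpl34* at 0 to 5 and *Rps27* at 0 to 4. The paralog *Rps27rt* was also listed at 0, *Rpl3l* held 3 to 9 counts and *Rpl32l* 3 to 12. The cause of these low counts was not tested, and no fold change is given for these genes.

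The first comparison asked whether loss of *Bmpr1a* from germ cells changed the level of these mRNAs in the ovary. At an FDR below 0.05, 9 of the 83 genes (10.8%) were called higher in *Bmpr1a*-cKO ovaries and 0 were called lower (edgeR quasi-likelihood F test), where 17.3% of all genes tested were called higher and 12.5% lower. At an unadjusted p below 0.05 in the same test the numbers were 16 and 0, against 3107 and 2559 of the 14249 genes tested. DESeq2, limma-voom and edgeR's likelihood ratio test also called 0 lower at an FDR below 0.05. Beyond a Log2FC of 0.5 as well, which was the threshold for a differentially expressed gene, 3 were higher and 0 lower, against 6.11% and 4.06% of all genes. All 4 *Bmpr1a*-cKO libraries lay above all 4 control libraries for 9 genes (16.1% of all genes tested) and below them for 0 (11.7%). None of these shares was above that of all genes tested.

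The differences were small in the subunit genes. Their Log2FC ran from -0.07 for *Rpl14* (named after its value was seen) to 0.31 for *Rpl15*, and the 95% confidence interval lay within 0.5 of 0 on either side for 69 of the 73. The median over the 83 genes was 0.08 under TMM scaling, with 68 above 0, and -0.09 under scaling to germ cell markers (*Ddx4*, *Dazl*, *Mael*, *Dnd1*), so its sign depended on the scaling. These markers are not a fixed reference. Among the 6 germ cell markers tested, which include them, 3 were called higher and 2 lower under TMM scaling. Scaling to them moved the median of all genes tested from -0.0042 to -0.18. Relative to all genes, the median of the ribosomal protein genes was 0.083 under either scaling. Under germ cell marker scaling 3 of the 83 were called higher and 0 lower, against 2.57% and 4.20% of all genes.

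**Figure D1:**
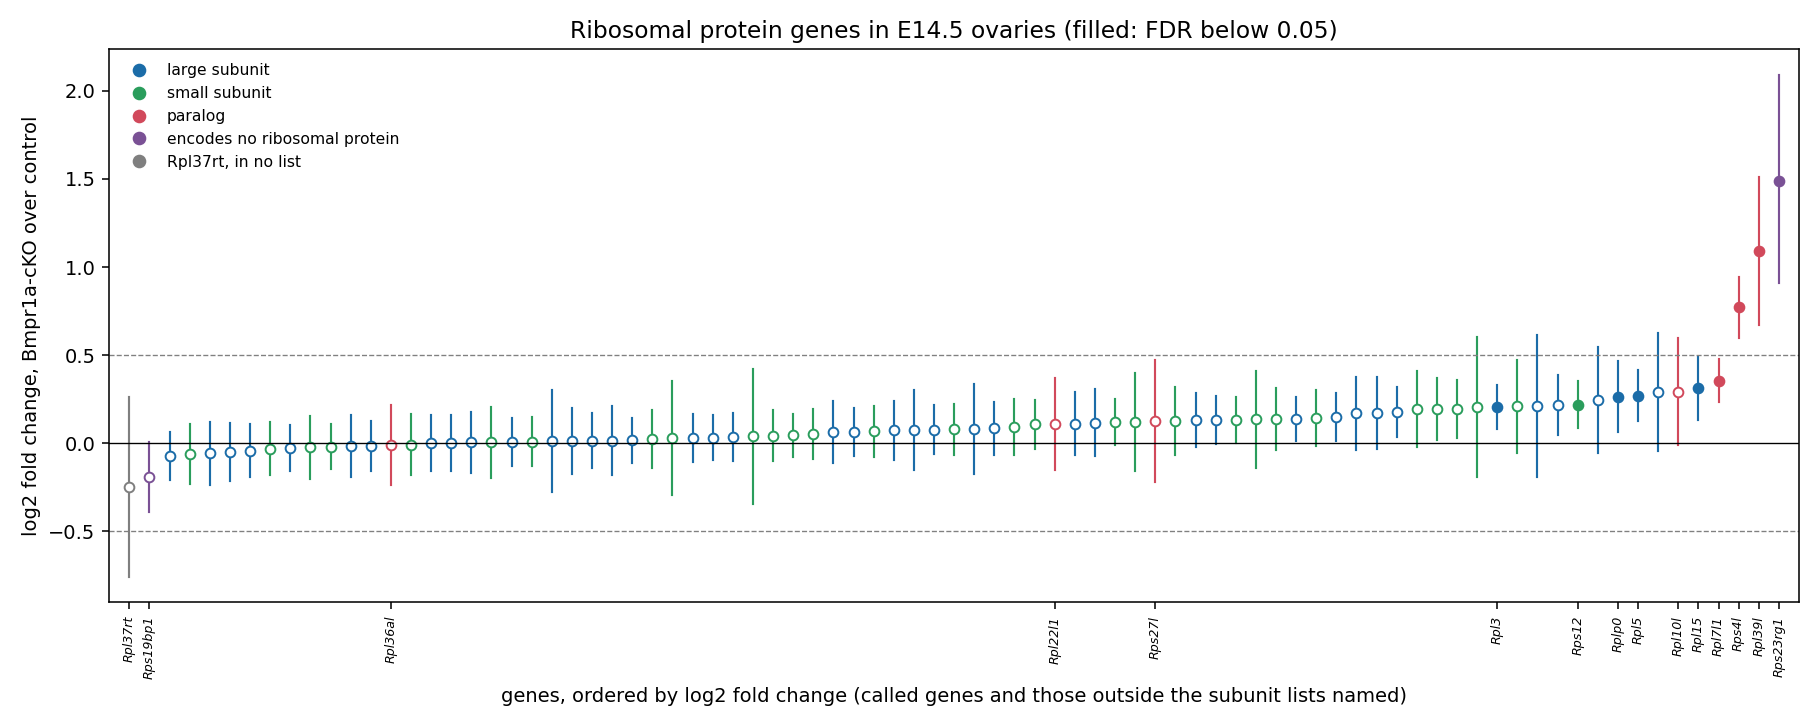
Log2 fold change (*Bmpr1a*-cKO over control, TMM scaling) of each of the 83 genes, with its 95% confidence interval as a line, ordered by size and coloured by class, filled where the FDR was below 0.05. The points of the subunit genes lie between -0.07 and 0.31, and *Rps4l*, *Rpl39l* and *Rps23rg1* lie beyond the dashed line at 0.5.

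Single libraries mattered for these counts. Control library 2 had the highest value of its genotype in 43 of the 73 subunit genes and control library 4 the lowest in 62, while *Bmpr1a*-cKO library 1 had the lowest in 55. Control library 2 was thus high, and *Bmpr1a*-cKO library 1 low, against the direction of the called genes. Leaving out either library raises the Log2FC by construction in the genes where it stands so. Without control library 2, 18 of the 83 genes were called higher (17.0% of all genes tested in that fit), without *Bmpr1a*-cKO library 1 there were 20 (19.4% of all genes), and without both, an alternative chosen after the data were seen, there were 35 (20.2% of all genes tested in that fit) and 7 beyond the Log2FC threshold. Among the 73 subunit genes the 5 calls became 14, 16 and 29 in these fits, of which the first and the second lie near those shares of all genes. They became 2 without control library 4 (13.1% of all genes), 3 without *Bmpr1a*-cKO library 3 (14%) and 0 under scaling to germ cell markers (2.57%). In each of these fits 0 of the 83 were called lower.

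The departure of these libraries was greatest in short mRNAs. For the 8 subunit genes with a principal transcript under 500 bases, the median difference in log2 CPM from the other libraries of the genotype was 0.55 in control library 2 and -0.68 in *Bmpr1a*-cKO library 1. For the 28 genes with 1000 bases or more it was 0.15 and -0.14. *Rps29* (390 bases, 0.82) and *Rpl39* (612 bases, 0.74) stood among the genes with the largest differences in control library 2. Both were low in *Bmpr1a*-cKO library 1, at -0.71 and -0.91. Length did not order every gene. *Rps20* (3706 bases) stood at 0.50 in control library 2 and -0.54 in *Bmpr1a*-cKO library 1, and *Rpl36* (383 bases) at 0.059 and -0.22. These genes were named after their values were seen. Across the 73 genes, Pearson's correlation of the difference with the log2 of the principal transcript length ran from -0.272 in *Bmpr1a*-cKO library 2 to 0.289 in *Bmpr1a*-cKO library 1, as a description over genes that share a library. It was -0.246 in control library 2 and 0.269 in control library 3, so control library 2 and *Bmpr1a*-cKO library 1 did not stand apart from the others by this measure. Over the 13633 tested genes with a length, the highest value was 0.245, in control library 4. Control library 4 was low at every length, with medians of -0.25 in the bin under 500 bases, -0.18 in the middle bin and -0.17 in the bin of 1000 bases or more. The bin of the shortest mRNAs is thin, and the cause of these differences was not tested.

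**Figure D2:**
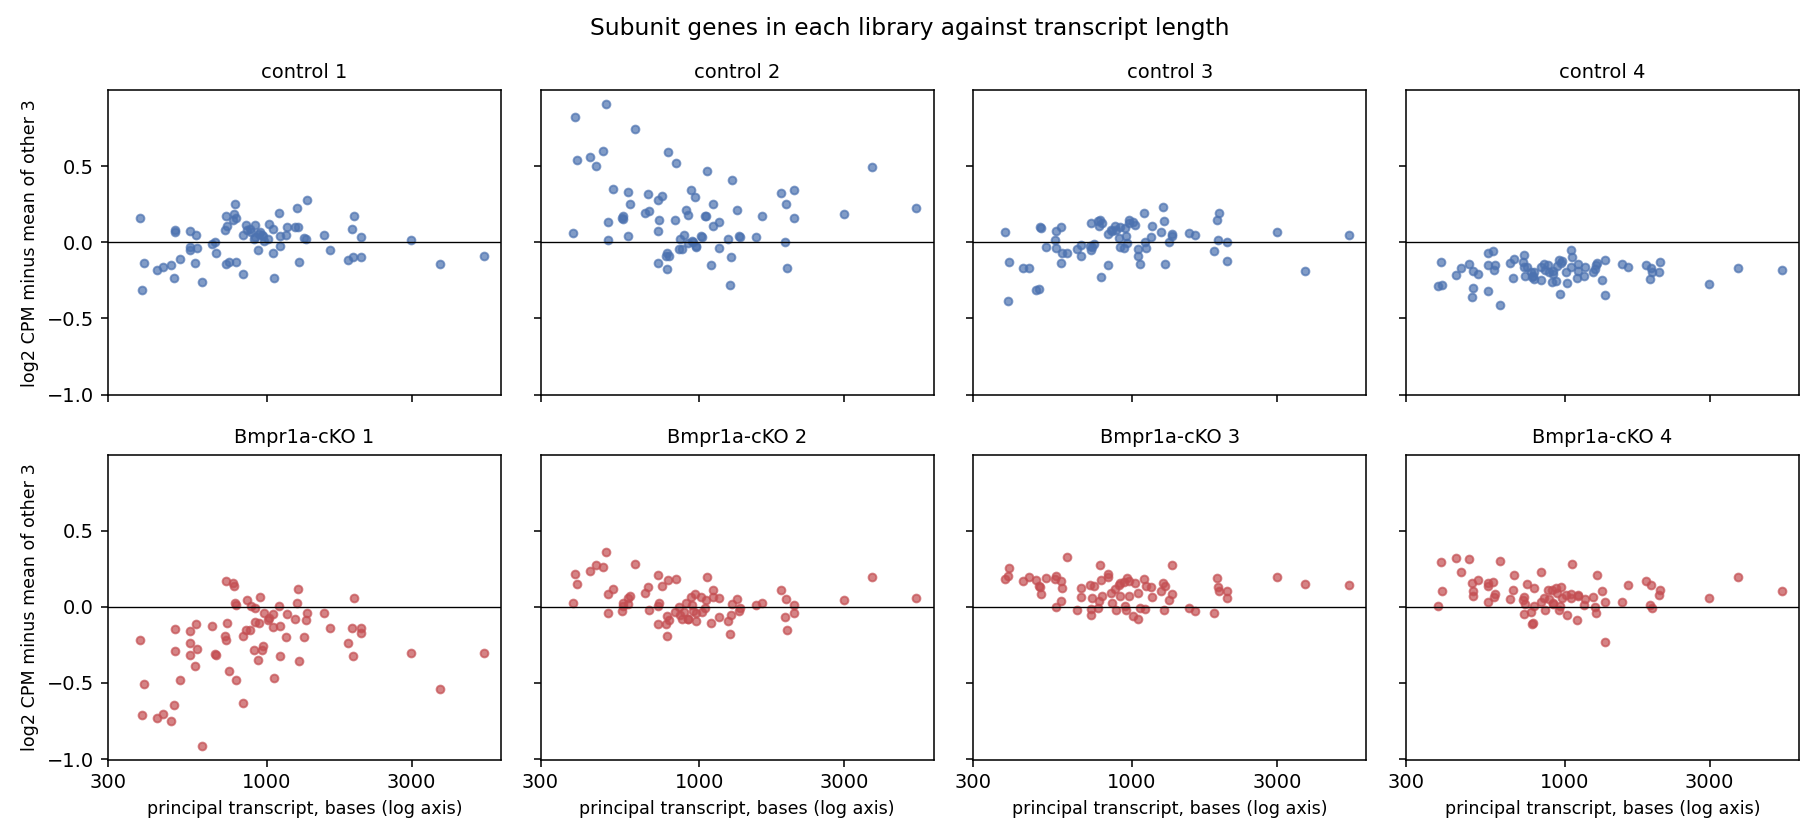
Each panel is a library and each point a subunit gene, with the length of its principal transcript in bases on a log axis and, on the vertical axis, its log2 CPM minus the mean of the other 3 libraries of the genotype. Control library 2 lies highest and *Bmpr1a*-cKO library 1 lowest at the short end, and control library 4 lies below 0 throughout.

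The 5 subunit genes called higher were *Rpl5*, *Rpl15*, *Rpl3*, *Rps12* and *Rplp0*, 4 of 43 in the large subunit and 1 of 30 in the small subunit. *Rpl5* encodes the protein that, with RPL11 and 5S rRNA, forms the particle that joins the large subunit and can bind MDM2. Its CPM was 562, 599, 553 and 500 in control libraries 1 to 4 and 619, 653, 703 and 693 in *Bmpr1a*-cKO libraries 1 to 4. The groups did not overlap (Log2FC = 0.27, SE = 0.067, FDR = 0.00689 by edgeR). Its partner *Rpl11* had a mean CPM of 430 ± 36.5 in control and 431 ± 36.5 in cKO ovaries (± SD over the 4 libraries of a genotype, here and below), a Log2FC of 0.0029 with a 95% confidence interval from -0.16 to 0.16 under TMM scaling and of -0.17 under scaling to germ cell markers.

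*Rpl15*, which encodes a core protein of the large subunit, had a CPM of 345, 413, 365 and 331 in control and 380, 461, 480 and 484 in *Bmpr1a*-cKO libraries. The genotypes overlapped through control library 2 and *Bmpr1a*-cKO library 1 only (Log2FC = 0.31, SE = 0.084, FDR = 0.0109 by edgeR). *Rpl3*, whose protein lies close to the peptidyl transferase centre, was at 760, 768, 773 and 707 in control and 828, 855, 906 and 882 CPM in *Bmpr1a*-cKO libraries. The groups did not overlap (Log2FC = 0.21, FDR = 0.0143 by edgeR). *Rps12*, the small subunit gene among the 5, had 509, 507, 524 and 452 CPM in control and 545, 583, 590 and 598 in *Bmpr1a*-cKO libraries, again without overlap (Log2FC = 0.22, FDR = 0.0151 by edgeR). *Rpl15* and *Rpl5* were called in each fit but that with germ cell marker scaling, while *Rpl3* and *Rps12* were each lost in a few, with FDRs of 0.0564 and 0.0628 without control library 4. Reads of *Rpl5*, *Rpl15* and *Rpl3* may include those of *Fam69a*, *Nkiras1* and *Syngr1* on the opposite strand, since whether the counting used strand is not given in the sources used here, and small nucleolar RNA genes lie within *Rpl5*, *Rpl3* and *Rps12*.

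The P stalk of the large subunit recruits elongation factors and is made of the products of *Rplp0*, *Rplp1* and *Rplp2*. *Rplp0* was at 1228, 1083, 1086 and 888 CPM in control and 1255, 1276, 1476 and 1138 CPM in *Bmpr1a*-cKO libraries. The groups overlapped, and the gene was called just inside the threshold (Log2FC = 0.26, FDR = 0.0459 by edgeR), with an FDR of up to 0.172 when 1 library was left out. *Rplp1* was at 599 ± 59.9 and 626 ± 59.9 CPM and *Rplp2* at 297 ± 39.8 and 300.2 ± 30.6 CPM in control and cKO ovaries, and neither was called, with FDRs of 0.612 and 0.926 by edgeR. Their Log2FC of 0.063 and 0.015 turned to -0.11 and -0.16 under scaling to germ cell markers.

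The next subunit genes by FDR did not pass. *Rpl22*, an RNA-binding protein of the large subunit, had an FDR of 0.0523 by edgeR, with 130, 163, 128 and 127 CPM in control and 145, 159, 163 and 168 CPM in *Bmpr1a*-cKO libraries. Control library 2 stood among the *Bmpr1a*-cKO values, and without it the FDR was 0.00237 by edgeR. Leaving out this high control library raises the Log2FC by construction. With control library 1, 3 or 4 left out instead, the FDR was 0.136, 0.142 or 0.166 by edgeR. Under scaling to germ cell markers it was 0.934. *Rpl13a*, *Rps13* and *Rpl4* had FDRs of 0.0544, 0.0694 and 0.0867 by edgeR and Log2FC of 0.18, 0.20 and 0.14. Among these, *Rpl4*, whose protein lines the exit tunnel, had the 4 *Bmpr1a*-cKO libraries (1203 to 1247 CPM) above the 4 control libraries (1033 to 1150 CPM). Of the 7 tested genes of the exit tunnel 0 were called, and of the 6 genes of the mRNA channel and the decoding region also 0. In each list 1 gene had an unadjusted p below 0.05 by edgeR. Among all genes tested 17.3% were called higher and 12.5% lower, and lists this short cannot be told apart from those shares. Beside *Rpl4*, *Rpl19* (Log2FC = 0.17), *Rpl39* (0.21) and *Rpl17* (0.0010) stood at the ends of the exit tunnel list, and *Rps2* (0.20), *Rps3* (0.14) and *Rps26* (-0.010) at those of the decoding list.

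**Figure D3:**
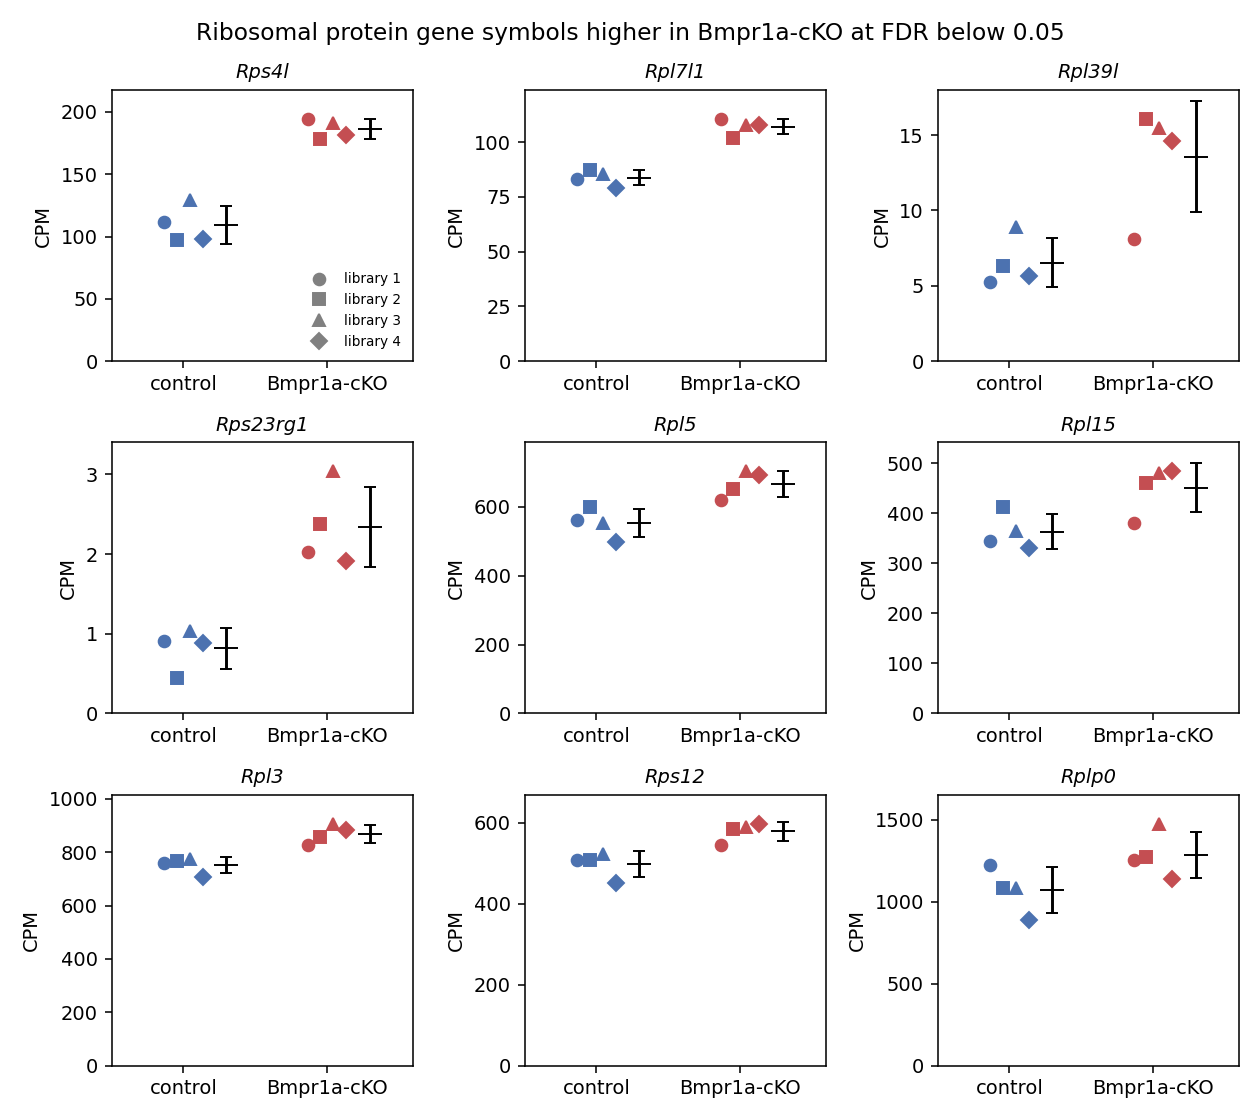
CPM of the 9 genes called higher in *Bmpr1a*-cKO ovaries, with a point for each library (its shape gives the library number) and the mean ± SD of 4 libraries in black. *Rps4l*, *Rpl7l1*, *Rps23rg1*, *Rpl5*, *Rpl3* and *Rps12* show no overlap between the genotypes, whereas *Rpl39l*, *Rpl15* and *Rplp0* overlap.

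Of the 7 paralogs tested, 3 were higher and 0 lower, where 17.3% of all genes tested were higher and 12.5% lower. The 7 included 2 of the 3 genes beyond both thresholds, which 6.11% of all genes passed as higher. A list of 7 is too short to read its shares as a result. *Rps4l*, the copy of X-linked *Rps4x*, had the lowest FDR of all 83 genes. Its CPM was 112, 97.4, 129 and 97.9 in control and 194, 178, 191 and 181 in *Bmpr1a*-cKO libraries, with no overlap. This was a rise from 109 ± 15.004 to 186 ± 7.76 CPM (Log2FC = 0.77, SE = 0.081, FDR = 6.47e-06 by edgeR). *Rps4x* itself went from 1149 ± 66.6 to 1226 ± 121 CPM and was not called (FDR = 0.381 by edgeR). *Rps4l* lies opposite *Tmtc1*, whose reads may be counted with it if strand was not used.

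*Rpl39l*, which is known for its use in ribosomes of male germ cells, was at 5.26, 6.29, 8.90 and 5.68 CPM in control and 8.11, 16.1, 15.5 and 14.6 CPM in *Bmpr1a*-cKO libraries. *Bmpr1a*-cKO library 1 lay within the control range and the other 3 far above it (Log2FC = 1.09, SE = 0.20, FDR = 0.000728 by edgeR). X-linked *Rpl39* was at 83.7, 141, 92.3 and 77.5 CPM in control and 68.0, 127, 130 and 128 CPM in *Bmpr1a*-cKO libraries, high in control library 2 and low in *Bmpr1a*-cKO library 1 as above. It was not called with all libraries (Log2FC = 0.21, FDR = 0.444 by edgeR), and without these 2 libraries its Log2FC was 0.60 (FDR = 1.07e-05 by edgeR). The 2 libraries were picked after the data were seen, as high and low in the subunit genes. Leaving them out raises the Log2FC by construction, so the FDR of that fit is only a description.

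*Rpl7l1*, a relative of *Rpl7* with a role in early large subunit assembly, was at 83.2, 87.2, 85.6 and 79.3 CPM in control and 111, 102, 108 and 108 CPM in *Bmpr1a*-cKO libraries. The groups did not overlap and the spread was small (Log2FC = 0.35, SE = 0.057, FDR = 0.000294 by edgeR). The other paralogs were not called. *Rpl10l*, a copy of X-linked *Rpl10* used in male meiosis, ranged from 6.73 to 8.99 CPM in control and from 7.99 to 11.2 in cKO libraries (Log2FC = 0.29, FDR = 0.139 by edgeR). *Rpl36al* had a Log2FC of -0.012, and *Rps27l* and *Rpl22l1* had 0.13 and 0.11 under TMM scaling and -0.096 and -0.073 under scaling to germ cell markers. Without control library 2 these were 0.29 and 0.26 (FDR = 0.156 and 0.0538 by edgeR), and without both it and *Bmpr1a*-cKO library 1 they were 0.44 and 0.33, with both genes called (FDR = 0.000107 and 0.00241 by edgeR). That last fit leaves out libraries picked after the data were seen, so its calls are only a description.

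Set against the main copy in the same library, *Rpl39l* was at 6.29%, 4.45%, 9.63% and 7.33% of the CPM of *Rpl39* in control and 11.9%, 12.7%, 11.95% and 11.4% in *Bmpr1a*-cKO libraries. On this scale the genotypes did not overlap, and *Bmpr1a*-cKO library 1 was close to the others. *Rps4l* was at 8.61% to 10.6% of *Rps4x* in control and 13.9% to 18.2% in cKO libraries, and *Rpl7l1* at 7.95% to 8.95% and 9.59% to 10.4% of *Rpl7*, both without overlap. *Rpl10l* was at 1.24% to 1.55% and 1.32% to 1.73% of *Rpl10*, and *Rpl36al* at 30.8% to 40.6% and 27.3% to 34.2% of *Rpl36a*, both with overlap. *Rpl22l1* (41.2% to 50.8% and 38.6% to 44.9% of *Rpl22*) and *Rpl37rt* (1.47% to 2.64% and 1.64% to 2.002% of *Rpl37*) overlapped as well. These percentages compare CPM without a correction for length, which is the same in both genotypes, and were not tested.

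**Figure D4:**
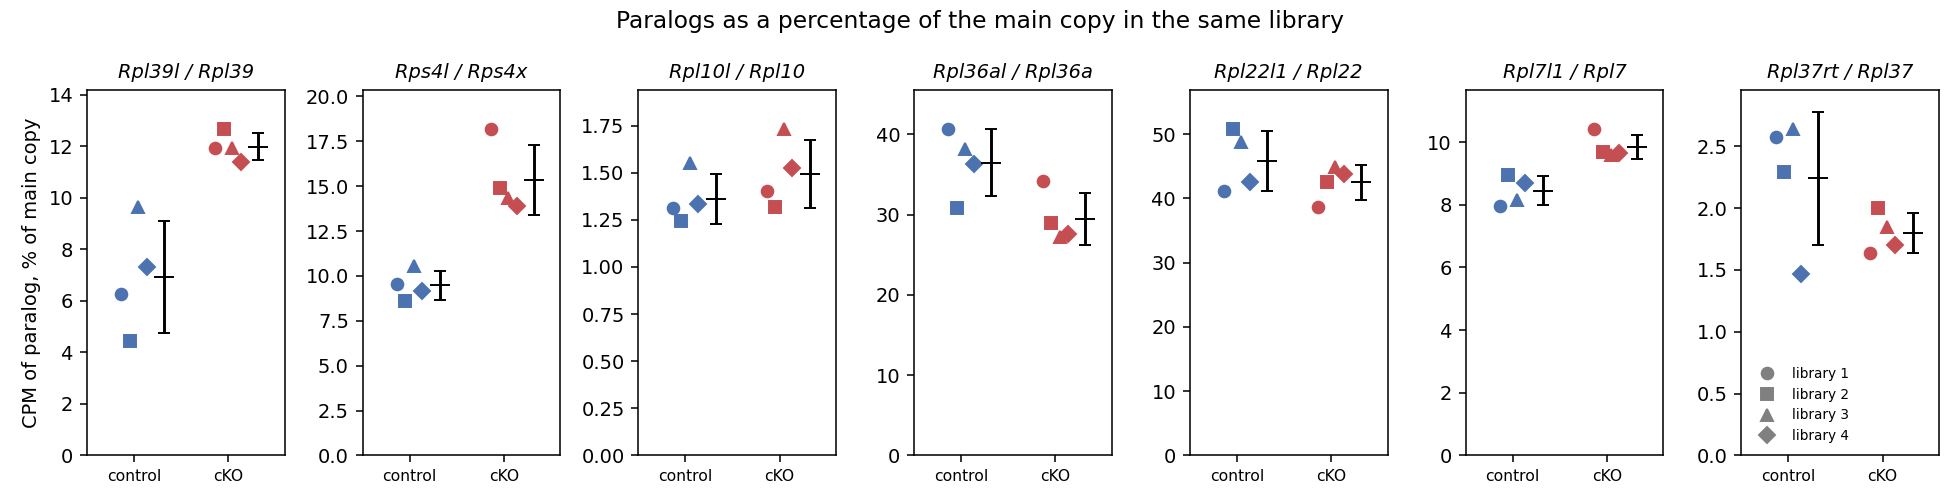
CPM of each paralog as a percentage of the CPM of its main copy in the same library, with a point for each library and the mean ± SD of 4 libraries in black. The genotypes are apart for *Rpl39l*, *Rps4l* and *Rpl7l1* and overlap for the other 4 pairs.

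The 4 X-linked subunit genes, *Rpl10*, *Rpl36a*, *Rpl39* and *Rps4x*, were not called with all 8 libraries. Their Log2FC were 0.15, 0.29, 0.21 and 0.094 under TMM scaling, and those of *Rpl10*, *Rpl39* and *Rps4x* turned to -0.020, -0.0052 and -0.082 under scaling to germ cell markers. *Rpl36a* and *Rpl39* had the widest intervals, from -0.04 to 0.63 and from -0.19 to 0.61. *Rpl36a* was called without control library 2 (Log2FC = 0.46, FDR = 0.0238 by edgeR) and without *Bmpr1a*-cKO library 1 (0.44, FDR = 0.00859). Without *Bmpr1a*-cKO library 1, *Rpl39* (0.38, FDR = 0.0479 by edgeR) and *Rpl10* (0.19, FDR = 0.0264) were also called. Without both libraries the Log2FC was 0.60 for *Rpl36a*, 0.60 for *Rpl39* and 0.17 for *Rpl10*, all called, while *Rps4x* (0.14, FDR = 0.124 by edgeR) was not. Each of these fits left out a library that stood against the difference, which raises the Log2FC by construction. Both libraries were picked after the data were seen, so the calls of these fits are only a description. With any other single library left out, the FDR by edgeR was 0.331 to 0.402 for *Rpl36a* and 0.578 to 0.774 for *Rpl39*. For *Rpl10* it was 0.083 to 0.271.

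Of the symbols that encode no ribosomal protein, *Rps23rg1*, a gene formed by retroposition of *Rps23*, was higher in *Bmpr1a*-cKO ovaries at a very low level. It held 5 to 14 counts per control library and 17 to 32 per *Bmpr1a*-cKO library, which is 0.904, 0.443, 1.03 and 0.884 CPM against 2.03, 2.38, 3.04 and 1.91 CPM. The groups did not overlap (Log2FC = 1.49, SE = 0.28, FDR = 0.000881 by edgeR), and reads of *Rps23-ps2* on the opposite strand may be included. *Rps19bp1*, which encodes a partner of RPS19, was at 16.8 ± 1.15 and 14.8 ± 1.11 CPM (FDR = 0.139 by edgeR), and the processed copy *Rpl37rt* at 4.37 ± 1.32 and 3.54 ± 0.881 CPM (FDR = 0.475 by edgeR).

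The genes that make ribosomes are set beside those that form them. Of 50 ribosome biogenesis genes 35 were called higher and 2 lower, with a median Log2FC of 0.33, and 36 were higher without control library 2 and *Bmpr1a*-cKO library 1. The rise was from 17.8 ± 0.958 to 32.7 ± 2.54 CPM for *Rrp9*, a protein of the U3 particle (Log2FC = 0.87), and from 45.0 ± 2.22 to 72.3 ± 3.50 CPM for the nucleolar GTPase *Gnl3* (Log2FC = 0.69). *Wdr43*, a factor of small subunit processing, had a Log2FC of 0.57, and *Ltv1*, an export factor of the small subunit, fell by 0.30. Under scaling to germ cell markers the list held 1 call higher and 0 lower, with a median of 0.15. In that fit all genes tested had a median of -0.18, and 2.57% of them were called higher and 4.20% lower. With TMM scaling the median of all genes was -0.0042, and 17.3% were called higher and 12.5% lower.

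The median Log2FC of initiation factors (0.11), further TOP mRNAs (0.10) and regulators (0.17) lay between those of ribosomal protein genes (0.078) and ribosome biogenesis genes (0.33). Of all genes tested, 17.3% were called higher and 12.5% lower under TMM scaling. Of 28 initiation factors 12 were higher and 2 lower, among them *Eif4a1* (Log2FC = 0.46), *Eif3d* (0.39), *Eif3b* (0.33) and *Eif2b3* (-0.36). Of 15 further mRNAs with a TOP tract 3 were higher and 0 lower, which were *Naca* (Log2FC = 0.26), *Pabpc1* (0.20) and *Btf3* (0.16), and the largest rise and fall among them, *Hnrnpa1* (0.50) and *Tpt1* (-0.11), were not called. Of 14 regulators of ribosomal protein synthesis 7 were higher and 0 lower, including *Eif4ebp1* (Log2FC = 0.36), *Larp1* (0.22) and *Mdm2* (0.26), and *Myc* was not called (-0.25, FDR = 0.224 by edgeR). Mitochondrial ribosomal protein genes gave 7 higher (8.97%) and 3 lower of 78, with *Mrps2* (0.38) and *Mrps30* (0.38) among those higher and *Mrpl35* (-0.39) lower. Their median Log2FC of 0.025 was below that of the cytosolic ribosomal protein genes. *Fau* and *Rack1*, which encode ribosome components outside the symbol rule, were not called. Each of the lists of initiation factors, TOP mRNAs, regulators and mitochondrial ribosomal proteins held 0 calls under scaling to germ cell markers, a fit in which 2.57% of all genes were called higher and 4.20% lower.

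**Figure D5:**
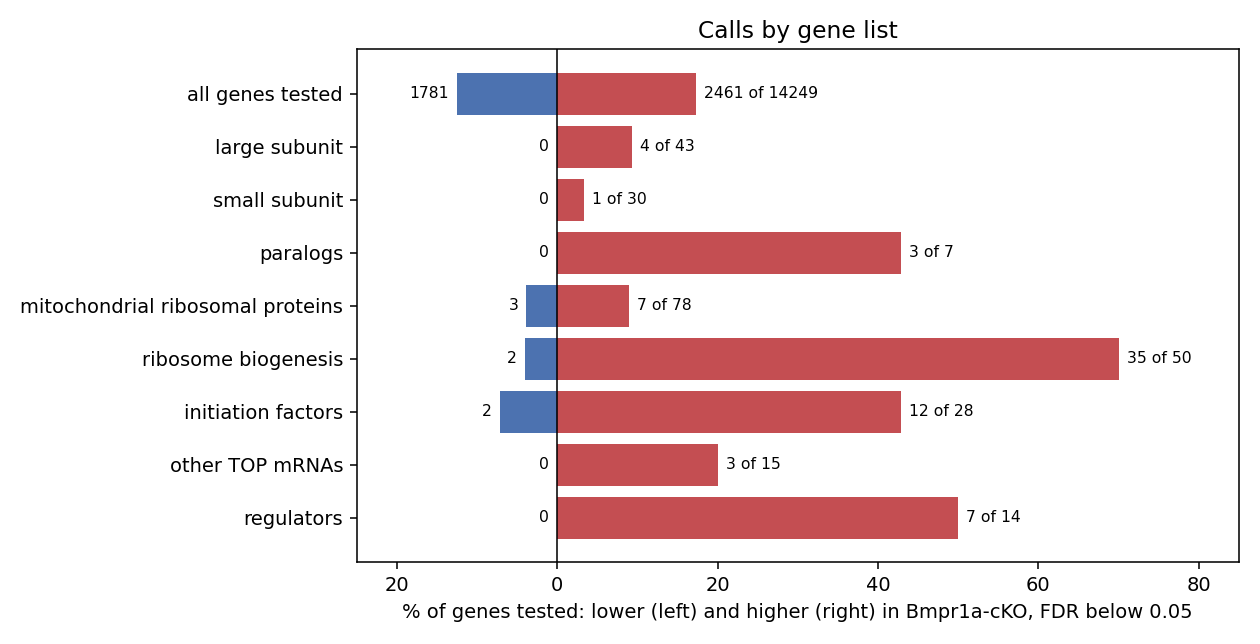
Share of tested genes called lower (left) and higher (right) in *Bmpr1a*-cKO ovaries at an FDR below 0.05 under TMM scaling, for all genes tested and for each list, with the number of genes beside each bar. The bars of the large subunit (4 of 43) and small subunit (1 of 30) are shorter than that of all genes tested, and that of ribosome biogenesis (35 of 50) is the longest. Under scaling to germ cell markers the biogenesis list holds 1 call, in a fit where 2.57% of all genes were called higher.

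Cell type markers moved between the genotypes under TMM scaling, where 17.3% of all genes tested were called higher and 12.5% lower. Of 6 germ cell markers 3 were higher and 2 lower, with a summed level of 603 to 803 CPM in control and 610 to 988 CPM in cKO libraries. All 6 pregranulosa cell markers were lower (750.5 to 811 and 550 to 690 CPM), and 3 of 5 macrophage markers were higher (26.0 to 37.2 and 34.3 to 49.1 CPM). The markers of stroma and of endothelium gave 0 calls of 5 each, those of Sertoli cells 1 higher (*Dmrt1*, which germ cells also express) and 1 lower of 4, and those of steroidogenic cells, erythroid cells and mesonephros 1 lower each, while *Hba-a1*, *Hbb-bs* and *Hbb-bt* were listed at 0. The targeted gene *Bmpr1a* went from 218 ± 15.3 CPM in control to 195 ± 10.5 CPM in cKO ovaries (FDR = 0.0692 by edgeR), which checks little, since counts are per gene and somatic cells keep it. The part of cell composition in the differences of ribosomal protein genes was not tested.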

How the data were processed

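RNA-Seq was analysed from 4 control and 4 *Bmpr1a*-cKO libraries. By the submitters' processing notes, Trimmomatic 0.39 and STAR 2.5.2 were used with the mm10 build, and the authors deposited whole-number counts of reads per gene symbol, without normalization. The annotation and strand setting of the counting are not given in the sources used here. The 8 columns of a deposited CPM table were not used.

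Tests used edgeR 4.0.16 in R 4.3.3: filterByExpr with genotype as the group, TMM, the quasi-likelihood F test (two-sided) and Benjamini-Hochberg adjustment over all genes tested. Genes were called at an FDR below 0.05. limma 3.58.1 and DESeq2 1.42.0 served as alternatives. A prior count of 2 entered the log2 CPM values. Positions, lengths and overlaps came from GENCODE vM21 (mm10), with 24704 symbols matched. The procedure was tested on simulated data, where 95 of 105 genes changed 2-fold and 76 of 94 genes changed 1.5-fold were called. Among the unchanged genes 13 were called. Smaller changes were not simulated, so this does not tell how often differences as small as those of the subunit genes are found. The precision of a value is set by the spread between pools at a depth of 8562961 to 15365052 counts per library.

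The members and lists were chosen with earlier results of these data known. Named were the genes past both thresholds, the 10 others with the lowest FDR, the paralogs, the P stalk, RPL5 with RPL11, X-linked genes and symbols without a ribosomal protein, the 3 highest and lowest per kb, and in other lists the 3 with the lowest FDR and the largest rise and fall. Some named genes are not reported here.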

Additional observations from a re-analysis of the deposited data

Results flagged for a closer look

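Among the named ribosomal protein genes, 10 sets of 4 libraries held a library whose gap to its neighbour, as a share of the range of the set, was above Dixon's critical value at the 95% level. Control library 2 was high for *Rpl22* (0.937), *Rps27l* (0.880) and *Rpl36a* (0.844). *Bmpr1a*-cKO library 1 was low for *Rpl39* (0.955), *Rps27l* (0.862), *Rps13* (0.858), *Rplp1* (0.843) and *Rpl36a* (0.838). Control library 4 was low for *Rpl4* (0.878) and *Rplp1* (0.835). Over all 83 genes and both genotypes 35 of 166 sets passed this value, where chance gives about 1 in 20, although genes of a library are not independent. Of the 35, 16 had control library 2 at the high end and 14 had *Bmpr1a*-cKO library 1 at the low end. The cause was not tested.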

How the results depend on the processing

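With TMM and all 8 libraries 9 genes were called higher and 0 lower, and 0 were called lower in every alternative. The number called higher was 3 with germ cell marker scaling, where 2.57% of all genes tested were called higher. With 1 library left out it was 6 to 20 (13.1% to 19.4% of all genes). It was 6 without control library 4, 18 without control library 2 and 20 without *Bmpr1a*-cKO library 1. Without both control library 2 and *Bmpr1a*-cKO library 1, a choice made after the data were seen, it was 35 (20.2% of all genes). In the other fits it stayed between 6 and 12 (12.4% to 19.1% of all genes). *Rps4l*, *Rpl39l* and *Rps23rg1* passed both thresholds in every alternative, and 7 genes did without control library 2 and *Bmpr1a*-cKO library 1. The median Log2FC, 0.078 with TMM, became -0.092 with germ cell marker scaling and 0.027 with library size alone. With 1 library left out its lowest value was 0.033, when control library 4 was dropped, and its highest 0.13, when *Bmpr1a*-cKO library 1 was dropped. Without both control library 2 and *Bmpr1a*-cKO library 1, which stood against the direction of the called genes, the median was 0.15. Control library 4, the lowest of its genotype in 62 of the 73 subunit genes, stayed in that fit. Same-numbered libraries were correlated by 0.20, 0.16, 0.11 and -0.087, so the numbers were not taken as pairs, and 2 of 4 libraries correlated best with their own number. With the replicate number as a block 12 genes were called higher (19.1% of all genes tested), 8 of them subunit genes instead of 5.

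Signs of uncalled genes turned in some fits. With germ cell marker scaling the Log2FC was -0.022 for *Rpl4*, -0.096 for *Rps27l*, -0.073 for *Rpl22l1*, -0.020 for *Rpl10*, -0.11 for *Rplp1*, -0.0052 for *Rpl39*, -0.082 for *Rps4x*, -0.17 for *Rpl11*, -0.16 for *Rplp2* and -0.040 for *Rps3a1*. That of *Rpl11* was -0.0075 with DESeq2, -0.0074 with RLE, -0.030 with upper-quartile scaling, -0.049 with library size alone, -0.0036 with TMM without the ribosomal protein genes, -0.0062 with no filter, -0.023 with the length offset and -0.0084 with the GC offset. That of *Rplp2* was -0.018 with upper-quartile scaling, -0.038 with library size alone, -0.0095 with the length offset and -0.00046 with the GC offset. Without control library 2 and *Bmpr1a*-cKO library 1 it was 0.15 for *Rpl36al* and 0.044 for *Rpl37rt*. With 1 library left out it ran from -0.015 to 0.13 for *Rplp1*, -0.068 to 0.083 for *Rpl36al*, -0.064 to 0.048 for *Rpl11* and -0.073 to 0.085 for *Rplp2*. The median level per kb was 383 over the longest and 523 over the APPRIS principal transcript, the last added after the data were seen. The cause of these changes was not tested, except that a shorter length raises a level per kb by construction. With 4 pools a genotype, an uncalled gene may still differ by any size within its interval.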
